A study of Mus musculus with 23 samples.

Results

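Ica1, Ildr2, Lsp1 and Fmo1 were described across 23 microarrays of mouse microglia, with 1 probe set for each of the 4 genes among 22203 probe sets in all. The genes were chosen by the difference between wild-type (WT) microglia at 12 and at 3 months, in which 8 probe sets were called, and the 4 are named genes among those 8. That difference is therefore given as a description. The tests below compare samples of the APP and TAU strains, whose group means took no part in the choice. Their samples did add to the spread estimate, shared by all groups, on which the choice and the tests both rest. The tests are thus not fully independent of the choice.

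All samples were microglia of cortex plus hippocampus, sorted as CD45 and CD11b positive. The groups were gated APP at 12 months (4 samples) and young APP at 3 months (3 samples) of the APPswlnd strain, a model of amyloid plaque formation that expresses mutant human amyloid precursor protein. Gated TAU at 9 months (4 samples) and young TAU at 3 months (4 samples) were of the P301S (PS19) strain, which carries a mutant human tau transgene. WT at 12 months (4 samples) and WT at 3 months (4 samples) were C57BL6. The cells of gated APP and gated TAU were the active microglia, sorted as Clec7a positive, a lectin receptor found on plaque-associated and other reactive microglia, and the labels name no such gate for the other 4 groups. Within APP and within TAU, age, pathology and gate therefore changed together and cannot be told apart. The titles of the gated TAU samples give 12 months and their age fields 9 months, and 9 months is used here. The replicates are called biological, but it is not stated that they are different animals, and p-values refer to the spread among the samples as given.

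The 4 proteins belong to no common pathway. Lsp1 encodes lymphocyte-specific protein 1, an actin-binding phosphoprotein of leukocytes that takes part in their migration and adhesion. Ildr2 encodes an angulin, an immunoglobulin-like membrane protein of the corners where 3 epithelial cells meet, which has also been described as a ligand that restrains T cells. Ica1 encodes islet cell autoantigen 1, a membrane-curving protein that binds Pick1 and Rab2 and acts in the making of secretory granules. Fmo1 encodes a flavin-containing monooxygenase, an enzyme of the endoplasmic reticulum that adds oxygen to nitrogen and sulphur compounds.

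All values are log2 signals per probe set, and differences are on the same log2 scale. The signal of 1467 probe sets for odorant, vomeronasal, taste and trace amine receptors, which microglia are not expected to express, served as a guide to background, and a value at or below their 95th percentile on the same array was taken as background. That level averaged 7.78 to 8.17 over the 6 groups. For marker genes of cell types, and where probe sets were kept by their highest group, the group mean was judged instead. It was set against the 95th percentile of the group means of these receptor probe sets. Where every array of the lower group was at background, the fold is a bound, computed against the background level. Arrays had medians of 6.87 to 7.13. WT 12 months replicates 2 and 4 had the highest background levels, 8.70 and 8.72, against 7.25 to 8.62 on the other 21 arrays. Signals of 3 Y-linked genes, averaged per array, lay between 4.16 and 7.13 in gated APP, 4.14 and 4.62 in young APP, 4.50 and 6.78 in gated TAU, 3.997 and 6.88 in young TAU, 6.06 and 7.31 in WT at 12 months, and 6.98 and 7.46 in WT at 3 months. In Y-linked signal, young APP thus lay below WT at 3 months without overlap, and near the low end of the gated APP range. This signal, which depends on the sex of the animals, therefore changed along with age, pathology and gate in APP. Of 12 measured microglia genes, among them P2ry12, Tmem119 and Cx3cr1, none was at background in any group.

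Promoter sequences from RefSeq (GRCm38.p6) were at hand for 2 of the 4 genes, Ildr2 and Ica1. They are shown because both genes were at background in all 11 young samples and above it in some or all samples of each aged group. Each window runs from 250 bases before the gene start to 50 after it, 5′ to 3′ on the gene's strand, and capitals mark the E-box CACGTG.
Ildr2, chr1:166253889-166254188, plus strand: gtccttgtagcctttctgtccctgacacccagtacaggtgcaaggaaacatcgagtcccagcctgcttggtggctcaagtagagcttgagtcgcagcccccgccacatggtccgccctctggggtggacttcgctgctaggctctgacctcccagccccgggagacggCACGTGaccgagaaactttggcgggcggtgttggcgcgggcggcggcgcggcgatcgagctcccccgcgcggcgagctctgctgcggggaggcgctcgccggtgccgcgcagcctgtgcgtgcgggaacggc
Ica1, chr6:8778435-8778734, minus strand: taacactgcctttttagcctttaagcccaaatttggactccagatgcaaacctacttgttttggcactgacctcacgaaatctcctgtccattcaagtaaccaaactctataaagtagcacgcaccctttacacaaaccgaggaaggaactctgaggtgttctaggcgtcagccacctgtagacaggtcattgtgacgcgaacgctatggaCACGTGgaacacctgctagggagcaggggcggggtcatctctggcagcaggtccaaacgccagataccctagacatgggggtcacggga
The E-box starts 82 bases before the Ildr2 start and 39 bases before the Ica1 start. Of 32851 RefSeq promoter windows of this length, 7.15% hold it on either strand. The Ildr2 window is rich in G and C (69.0%, against a median of 52.7%) and holds 3 copies of the GC box GGGCGG, found in 35.7% of windows. The Ica1 window (51.3% G and C) holds 1 GC box, 1 copy of GAGGAA, a core of sites for the myeloid factor PU.1 (28.3% of windows), and 1 of TATAAA (13.6%). The AP-1 motif TGANTCA (7.81% of windows) is in neither. A second RefSeq start of Ica1 has no E-box in its window. These matches are letters in a window, not shown binding sites.

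In WT microglia, the contrast that chose the genes, the 12 month samples lay above all 3 month samples for each of the 4. Probe sets called higher made up 0.0360% of all those tested (8 of 22203, limma, Benjamini-Hochberg adjusted p under 0.05), and none was called lower. Lsp1 was 2.44-fold higher at 12 months (log2 1.29 ± 0.23, SE). The other 3 were at background in all 3 month samples, and folds for Ica1 and Ildr2 are bounds set against that background. They were at least 1.47-fold for Ica1 (measured log2 difference 2.003 ± 0.29) and at least 1.45-fold for Ildr2 (1.46 ± 0.22). At 12 months 2 of 4 samples of each were above the background of their own array, so these bounds are not firm. Fmo1 differed by 0.88 ± 0.15 and is given no fold. Only 1 of its 4 samples at 12 months was above background, and their mean of 7.945 lay below that group's background level of 8.168. Just inside the threshold lay Lsp1 and Elf3, a transcription factor gene at background in all 8 WT samples and not among the 4, both with an adjusted p of 0.0357. Just outside it lay Slco1a6 (1.96, adjusted p = 0.0660), Slc10a2 (1.14, adjusted p = 0.0667) and Prkaa2 (1.297, adjusted p = 0.0732). The place of the 4 inside the threshold depended on single samples. With each of the 8 WT samples left out in turn, Ica1 stayed inside it in 6 of 8 fits, Ildr2 in 5, Lsp1 in 3 and Fmo1 in 1. Ica1 left it without WT 3 months replicate 2 or 3 (adjusted p up to 0.0577), and Ildr2 without WT 3 months replicate 1, 2 or 3 (up to 0.0735). Lsp1 left it without any of those 3 or without WT 12 months replicate 1 or 4 (up to 0.247). Fmo1 stayed inside it without WT 12 months replicate 3 and in no other of these fits (up to 0.188). Over these fits the differences lay between 1.12 and 1.54 for Lsp1 and between 0.76 and 0.96 for Fmo1. In a fit on the WT samples alone, Ica1 stayed inside the threshold (adjusted p = 0.0355), and Ildr2 (0.191), Lsp1 (0.535) and Fmo1 (0.533) did not. When WT 12 months replicates 2 and 4 were dropped together, Ildr2 differed by 1.79, Ica1 by 2.03, Lsp1 by 1.55 and Fmo1 by 0.72. Ildr2 was then inside the threshold (adjusted p = 0.0167), and Ica1 (0.0914), Lsp1 (0.0854) and Fmo1 (0.837) were outside it.

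**Figure D1:**
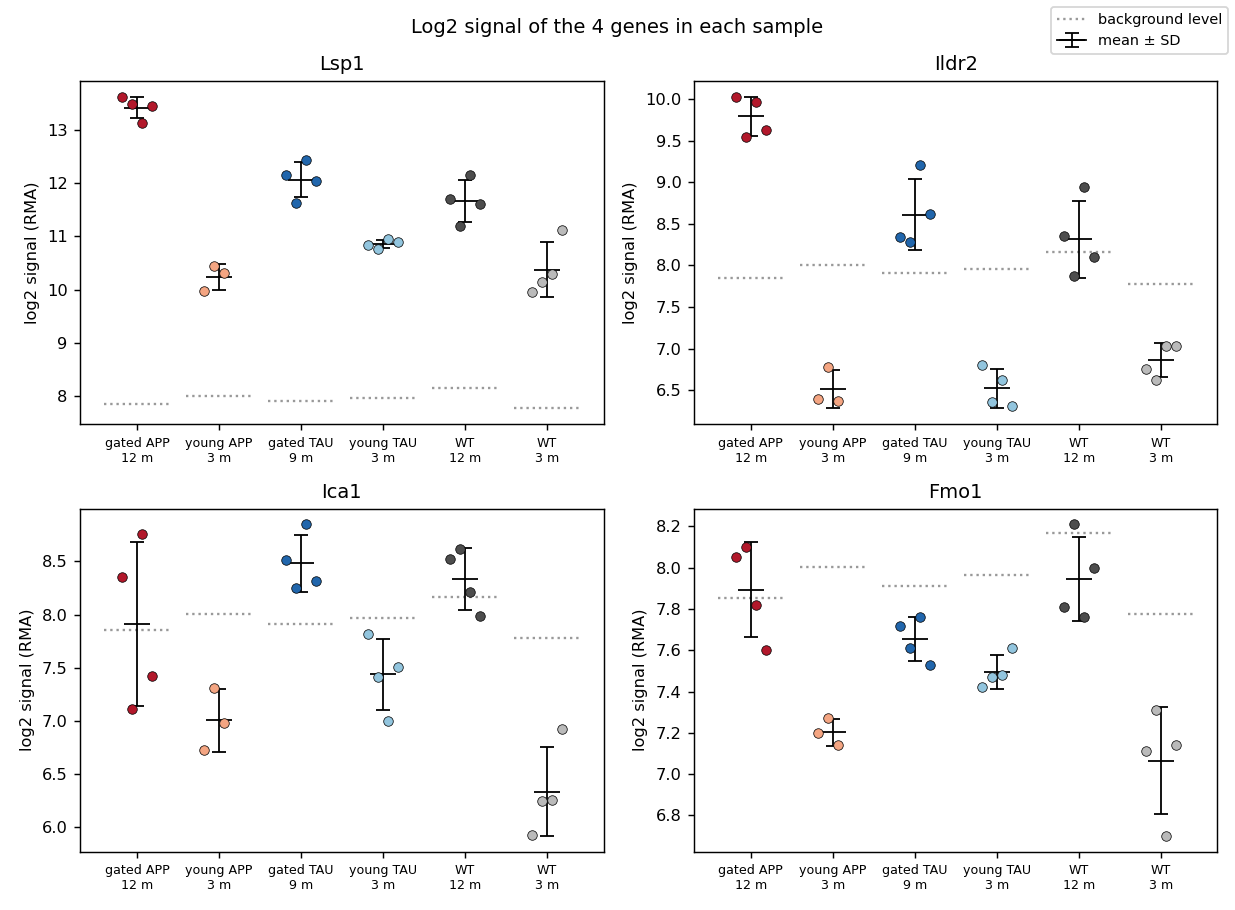
Log2 signal (RMA) of Lsp1, Ildr2, Ica1 and Fmo1 in each of the 23 samples, by group, with the group mean ± SD in black and the mean background level of the group as a dotted line. Lsp1 is above background in all 23 samples, Ildr2 is highest in gated APP, and Fmo1 stays near background in all groups.

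Lsp1 was the only 1 of the 4 above background in all 23 samples, and it was highest in gated APP. It measured 13.61, 13.48, 13.13 and 13.45 in gated APP, against 9.97, 10.44 and 10.32 in young APP. All gated APP samples thus lay well above all young APP samples, a 9.03-fold difference (log2 3.17 ± 0.25, SE; limma, adjusted p = 5.2e-09). In gated TAU Lsp1 measured 12.16, 11.63, 12.43 and 12.04, against 10.84, 10.77, 10.95 and 10.90 in young TAU. These groups did not overlap either, and Lsp1 was 2.30-fold higher in gated TAU (1.20 ± 0.23, adjusted p = 0.000862). For comparison, 6.19% of all probe sets were called higher in gated than in young APP, and 6.67% in gated than in young TAU. WT samples measured 11.70, 11.19, 12.16 and 11.61 at 12 months, against 9.95, 10.14, 10.30 and 11.12 at 3 months.

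The rise of Lsp1 was larger in APP than in TAU. The APP change minus the TAU change was 1.97 ± 0.34 (SE; limma, adjusted p = 0.0064), a test in which 0.167% of probe sets were called higher. The 4 gated APP samples all exceeded the 4 gated TAU samples, by 1.35 ± 0.23 (adjusted p = 0.00179), where 0.626% of probe sets were called higher. In the young groups the order ran the other way: each young APP sample lay below each young TAU sample, by -0.62 ± 0.25, with an adjusted p of 0.9997 (interval -1.14 to -0.11). In that comparison limma called 0 probe sets (0%), and 351 had an unadjusted p under 0.05. Fits with array weights, or without young TAU replicate 3, called 1 each. An exact two-sided permutation test of Lsp1 alone gave p = 0.0286 unadjusted, the smallest that 3 against 4 samples allow, among 16 such tests run on the 4 genes. The order of the group means from high to low was gated APP, gated TAU, WT 12 months, young TAU, WT 3 months and young APP. Neighbours did not overlap between gated APP and gated TAU or between WT 12 months and young TAU, and overlapped at the other 3 steps.

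Ildr2 passed from background in all young samples to a clear signal in gated APP. It measured 10.02, 9.55, 9.97 and 9.63 in gated APP, against 6.39, 6.78 and 6.37 in young APP, an at least 3.46-fold rise (measured log2 difference 3.28 ± 0.24, SE; limma, adjusted p = 2.05e-09). In gated TAU it measured 8.34, 8.28, 9.21 and 8.62, against 6.81, 6.36, 6.62 and 6.31 in young TAU, an at least 1.57-fold rise (2.09 ± 0.22, adjusted p = 7.4e-07). Neither pair of groups overlapped. WT samples measured 8.35, 7.87, 8.94 and 8.10 at 12 months, 2 of them above background, against 6.76, 6.62, 7.03 and 7.03 at 3 months.

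Gated APP exceeded gated TAU for Ildr2 in all 16 pairs of samples, by 1.18 ± 0.22 or 2.27-fold (limma, adjusted p = 0.00581). In a fit on these 2 groups alone the adjusted p was 0.0570, so that this call depends on the spread shared with the other groups. The APP change minus the TAU change was 1.19 ± 0.33 (adjusted p = 0.256) and was not called, although array weights brought it to an adjusted p of 0.0266. Young APP and young TAU were level, with a difference of -0.01 and a 95% confidence interval from -0.51 to 0.49. Group means ran from gated APP through gated TAU and WT 12 months to WT 3 months, young TAU and young APP, and the samples of gated TAU and WT 12 months overlapped, as did those of the 3 young groups.

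**Figure D2:**
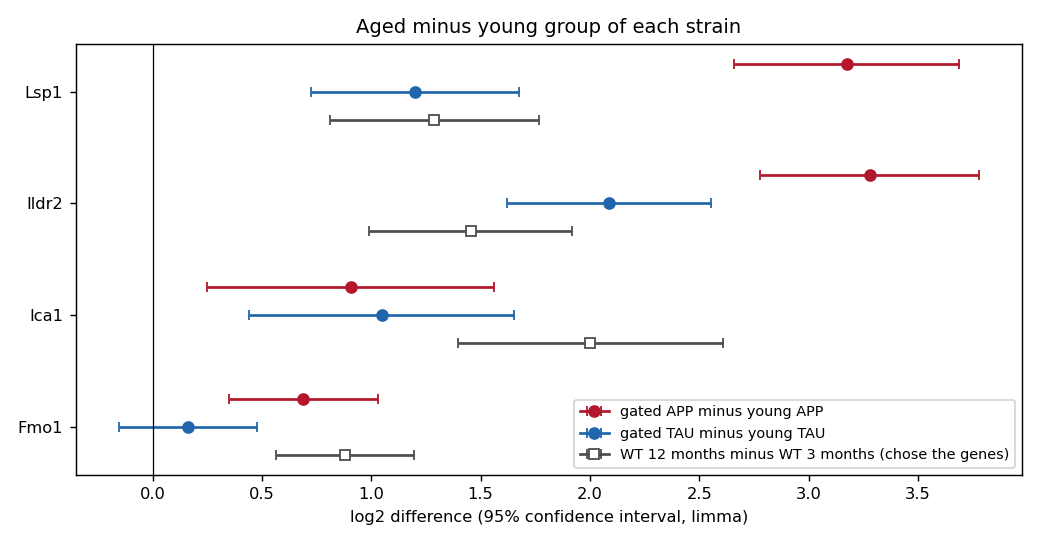
Log2 difference of each gene, with its 95% confidence interval from limma, for gated APP minus young APP (red), gated TAU minus young TAU (blue) and WT 12 months minus WT 3 months (open grey squares, the contrast that chose the genes). The APP intervals of Lsp1 (2.66 to 3.69) and Ildr2 (2.78 to 3.78) lie above their TAU intervals (0.72 to 1.68 and 1.62 to 2.55), and the TAU interval of Fmo1 spans 0. The APP change minus the TAU change was called for Lsp1 and not for Ildr2 (limma, adjusted p = 0.256).

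Ica1 was higher in gated than in young TAU, and its gated APP samples were split. It measured 8.51, 8.25, 8.85 and 8.32 in gated TAU, all above background, against 7.82, 7.41, 7.0 and 7.51 in young TAU, all at background. The groups did not overlap and the rise was at least 1.43-fold (measured log2 difference 1.05 ± 0.29, SE; limma, adjusted p = 0.0178). The call was lost without gated TAU replicate 3 (0.93, adjusted p = 0.0624) or young TAU replicate 3 (0.90, adjusted p = 0.0770). In gated APP it measured 8.35, 7.11, 8.76 and 7.42, against 6.72, 7.31 and 6.98 in young APP. Replicates 1 and 3 of gated APP were above background and replicates 2 and 4 at background, and replicate 2 lay within the young APP range.

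The difference between gated and young APP for Ica1 was 0.91 ± 0.32 (SE; limma, adjusted p = 0.0658), not called. It was called without gated APP replicate 2 (1.17, adjusted p = 0.0123) or replicate 4 (1.07, adjusted p = 0.0381). It was also called when probe sets not above background in the group of their highest mean were filtered out (adjusted p = 0.0366). The change in APP minus that in TAU was -0.14, with an interval from -1.03 to 0.75, so the 2 strains were not shown to differ. WT samples measured 8.52, 8.62, 8.21 and 7.99 at 12 months, 2 of them above background, against 5.92, 6.24, 6.25 and 6.92 at 3 months. Gated TAU and WT 12 months had the highest means, 8.48 ± 0.27 and 8.34 ± 0.29 (SD, n = 4 each), and their samples overlapped.

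Fmo1 lay between 6.70 and 8.21 in the 23 samples, and 6 of them were above the background of their array. It measured 8.05, 8.10, 7.82 and 7.60 in gated APP, against 7.20, 7.27 and 7.14 in young APP. Gated APP lay above young APP in all 12 pairs of samples (log2 difference 0.69 ± 0.16, SE; limma, adjusted p = 0.00604). No fold is given, since the mean of gated APP was below the background level of young APP. In a fit on these 2 groups alone the adjusted p was 0.0589. In gated TAU it measured 7.72, 7.61, 7.76 and 7.53, against 7.42, 7.47, 7.48 and 7.61 in young TAU, which overlapped (0.16 ± 0.15, adjusted p = 0.569, interval -0.16 to 0.48). WT samples measured 7.81, 8.21, 7.76 and 8.0 at 12 months, against 7.11, 7.31, 6.70 and 7.14 at 3 months. The APP and TAU changes differed by 0.53 ± 0.22, which was not called (adjusted p = 0.882).

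Set beside WT at 12 months, the aged transgenic groups took different places for the 4 genes. The WT samples are those that chose the genes, so these differences carry no test. Gated APP minus WT 12 months was 1.75 ± 0.23 (SE) for Lsp1 and 1.48 ± 0.22 for Ildr2, without overlap of the groups, and -0.43 ± 0.29 for Ica1 and -0.05 ± 0.15 for Fmo1, both with overlap. Gated TAU minus WT 12 months was 0.40 ± 0.23 for Lsp1, 0.30 ± 0.22 for Ildr2 and 0.15 ± 0.29 for Ica1, all with overlap. It was -0.29 ± 0.15 for Fmo1, with no gated TAU sample above a WT sample. Without WT 12 months replicates 2 and 4, the Ildr2 values were 1.15 in gated APP and -0.03 in gated TAU.

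Set beside WT at 3 months, young TAU was higher in all 16 pairs of samples for Ica1 (1.10 ± 0.29, SE) and Fmo1 (0.43 ± 0.15), although all but 1 of these samples were at background. The genes were chosen partly for being low in these WT samples, so the differences in this paragraph carry no test. Young TAU differed from WT by 0.49 ± 0.23 for Lsp1 and -0.34 ± 0.22 for Ildr2, with overlap. Young APP minus WT 3 months lay between -0.35 for Ildr2 and 0.67 for Ica1, and the groups overlapped for all 4 genes.

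Relatives and partners of the 4 genes were read against the share of all probe sets called in either direction, 12.1% in gated against young APP and 13.5% in gated against young TAU. Among 21 other regulators of the leukocyte actin cytoskeleton, 2 rose and 3 fell in gated against young APP, with a median of -0.25, beside a median of -0.04 over all probe sets. In gated against young TAU 5 rose and 3 fell, with a median of 0.11, beside -0.03 over all probe sets. Capg, which caps actin filament ends, rose by 3.42 ± 0.25 in APP (11.23 ± 0.30 in gated against 7.81 ± 0.22 in young) and by 3.01 ± 0.23 in TAU (limma, adjusted p = 2.04e-09 and 5.07e-09). Mapkapk2, the kinase that phosphorylates Lsp1, rose by 1.73 ± 0.31 in APP and 1.48 ± 0.29 in TAU (adjusted p = 0.000392 and 0.000899). Cotl1, Myo1f and Myo1g were called higher in TAU. Dock8, a guanine nucleotide exchange factor of leukocyte migration, fell by 1.83 in APP and by 1.43 in TAU. Fermt3, which activates integrins, fell in both strains, the filament bundler Lcp1 fell in APP and the formin Fmnl1 fell in TAU. In TAU the calls of Myo1f (adjusted p = 0.0336) and Fermt3 (adjusted p = 0.0380) were lost with median centring (adjusted p = 0.0597 and 0.0899) and with most single TAU samples left out.

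Of 9 other angulins and junction proteins, 1 fell and 8 were not called in each strain, a share near that of all probe sets. The one that fell was Tjp1, a scaffold of tight junctions, by 2.20 in APP (adjusted p = 3.4e-06) and by 1.88 in TAU (adjusted p = 1.1e-05). The other angulins Lsr and Ildr1 differed by -0.30 and -0.43 in APP and by -0.12 and 0.05 in TAU, none called. Of 6 proteins related to Ica1 or binding it, Pick1 rose in APP (1.17 ± 0.25, adjusted p = 0.00215; 8.74 ± 0.22 in gated against 7.57 ± 0.71 in young) and differed by -0.31 ± 0.23 in TAU, not called. Its gated APP level exceeded that of gated TAU by 1.34 (adjusted p = 0.00179). The other 5, Ica1l, Arfip1, Arfip2, Rab2a and Rab2b, were not called in either strain. None of 5 other flavin-containing monooxygenases (Fmo2, Fmo4, Fmo5, Fmo6 and Fmo9) was called in either strain, with differences from -0.27 to 0.20 in APP and from -0.65 to 0.33 in TAU. In WT none of these relatives and partners was called between 12 and 3 months. With 8 of 22203 probe sets (0.0360%) called in that contrast, the lack of calls says little about them.

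**Figure D3:**
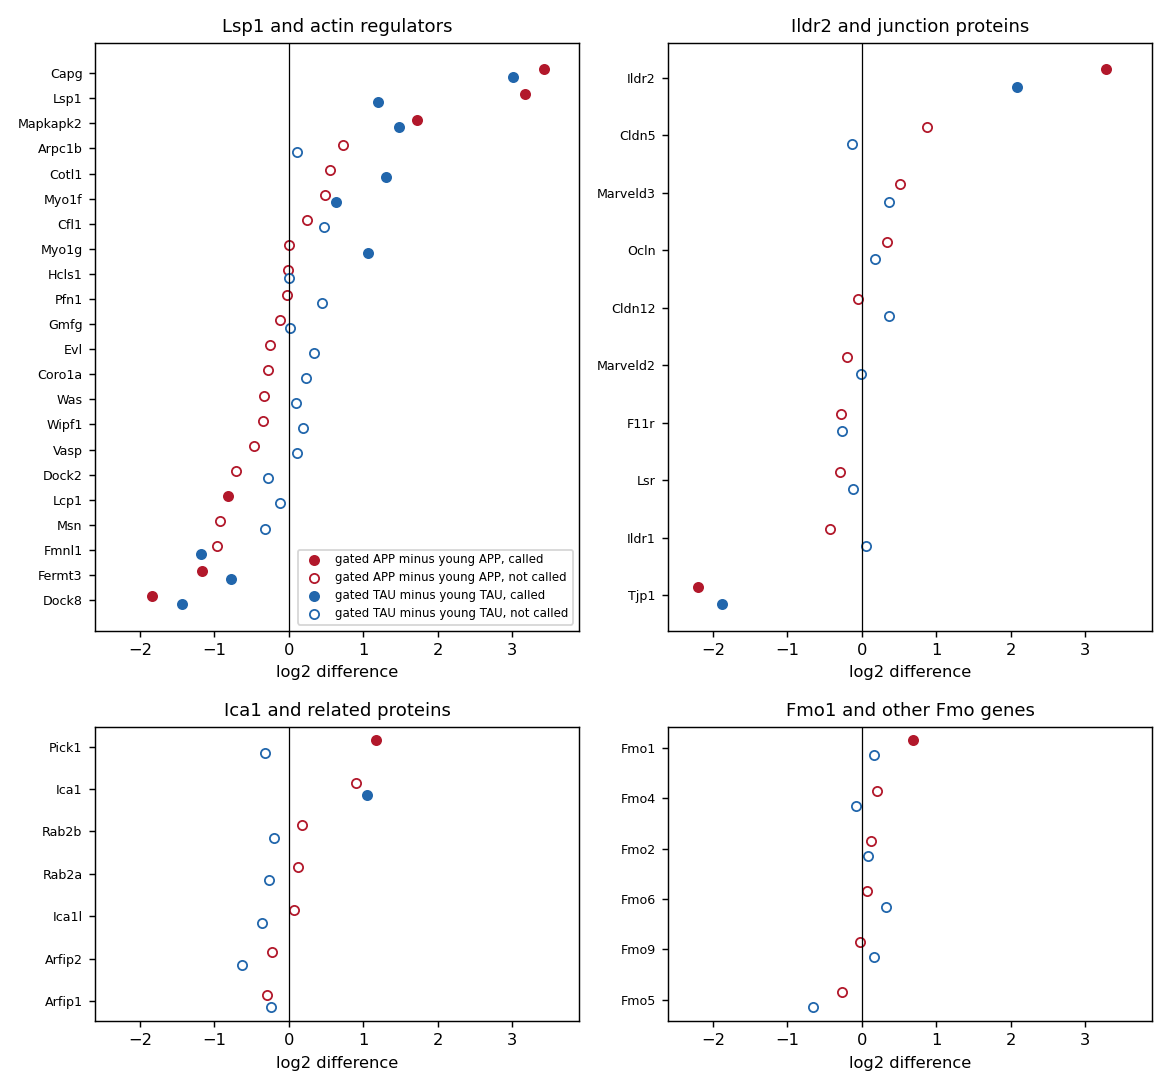
Log2 difference of each gene in 4 lists, gated minus young, in APP (red) and in TAU (blue), with filled points for an adjusted p under 0.05 in limma and open points otherwise. In APP, Ildr2 (3.28) is the highest of its list and Lsp1 (3.17) is second to Capg (3.42), and the other Fmo genes cluster near 0.

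Over the 23 samples the probe set most like Lsp1 was that of Ildr2 (Pearson r = 0.95, Spearman rho = 0.89), out of all with a symbol and a signal above background in their highest group. The likeness is a description, since the points share arrays and groups and both genes were chosen on the means of 8 of the samples. The correlation of their deviations from the group means was 0.63. Next to Lsp1 came Gpr84, a receptor for medium-chain fatty acids (r = 0.92), Galns, Crlf2 and Eno1b. Closest to Ildr2 was Tnfsf13b, which encodes the cytokine BAFF (r = 0.95), followed by Lsp1, the nicotinic acid receptor gene Hcar2 (r = 0.92), Il1b (r = 0.91) and Sgcb. The correlation of deviations from the group means with Ildr2 was 0.497 for Tnfsf13b, 0.036 for Hcar2, 0.308 for Il1b and 0.462 for Sgcb. The likeness of Hcar2 thus lay in the group means. Closest to Ica1 were Slco1a6 (r = 0.85), Trim59, Zcchc10, Mical3 and Chst9. Fmo1 was most like Mrps23 (r = 0.81), Gm6710, Gm14322, Ica1 (r = 0.74) and Sp110. The correlation of deviations was 0.11 for Ica1 with Fmo1 and -0.31 for Ildr2 with Fmo1.

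**Figure D4:**
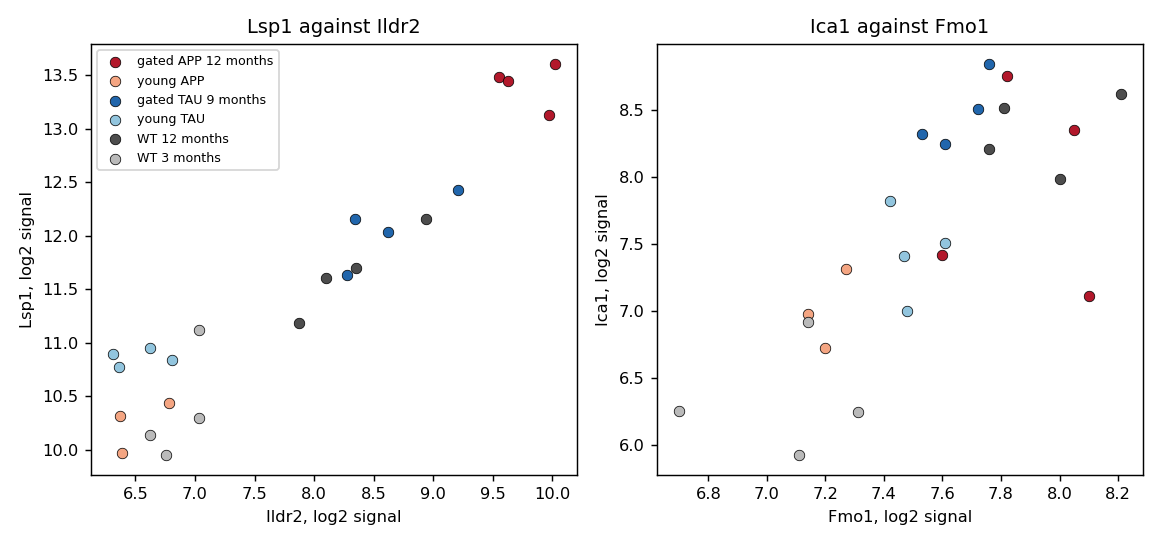
Log2 signal of Lsp1 against Ildr2 (left) and of Ica1 against Fmo1 (right) in the 23 samples, coloured by group. Lsp1 and Ildr2 follow each other with gated APP at the top (r = 0.95), and Ica1 and Fmo1 spread more widely (r = 0.74).

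Of the 16 nearest measured protein-coding genes on the chromosome, 3 were called in gated against young APP and 1 in gated against young TAU, beside the 12.1% and 13.5% of all probe sets. None of the 2 neighbours on each side of Ildr2 (Gpa33, Mael, Tada1 and Pogk) was called in either strain, with differences from -0.32 to 0.30 in APP. Next to Fmo1 lie Fmo4, Fmo2 and Fmo6, none called, and Prrc2c, which fell in APP (-0.74, adjusted p = 0.0374). Of the 4 beside Ica1, Ndufa4 rose in APP (0.999, adjusted p = 0.00552), and of the 4 beside Lsp1, Mrpl23 rose in APP (1.07, adjusted p = 0.0239) and TAU (1.28, adjusted p = 0.0034).

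Lsp1 is expressed by many leukocytes, so markers of other cell types were read beside it. Of all probe sets, 6.19% were called higher and 5.95% lower in gated against young APP. In gated against young TAU these shares were 6.67% and 6.81%. All 8 measured monocyte markers were at background in every group. Of these 8, 1 was called higher in gated against young APP and 1 in gated against young TAU. All 10 neutrophil markers were at background in gated APP and gated TAU, and 7 to 9 of them in the other groups. Of these 10, 1 was called lower in gated against young APP and 3 in gated against young TAU. All 9 B cell markers were at background in both gated groups, and 1 was called higher in each strain. Of 7 dendritic cell markers, 6 were at background in every group and Ccr7 was above it. Of these 7, 1 was called lower in gated against young APP and 0 in gated against young TAU. Of 17 T and NK cell markers, 14 were at background in gated APP and 15 in gated TAU. In young APP and young TAU all 17 were at background, and 16 in each WT group. The defining genes Cd3e, Cd3d and Cd3g were at background in every group. Cd4 and Klrb1c were above it in both gated groups, Cd5 in gated APP, and Cd4 in both WT groups. Of the 17, 2 rose in gated against young APP and 4 in gated against young TAU. The mean signal of these 17 ranged from 6.03 to 6.11 in gated APP, against 5.68 to 5.93 in young APP, and from 6.26 to 6.27 in gated TAU, against 5.69 to 6.21 in young TAU. Border macrophage markers (8 genes) ranged from 7.56 to 7.70 in gated APP, against 8.44 to 8.78 in young APP, and from 8.12 to 8.96 in gated TAU, against 8.08 to 8.83 in young TAU. Of these 8, 5 fell in gated against young APP, 1 rose in gated against young TAU, and 2 were lower in gated APP than in gated TAU. Of all probe sets, 67 of 22203 were called lower in gated APP than in gated TAU. Cd163, Lyve1, F13a1 and Siglec1 were at background in every group, and the other 4 were above it in at least 1 group. Endothelial and pericyte markers (13 genes) ranged from 6.55 to 8.08 in gated APP, against 6.82 to 7.14 in young APP, and from 6.63 to 6.71 in gated TAU, against 6.70 to 7.13 in young TAU. Of the 12 microglia genes 6 fell in gated against young APP and 7 in gated against young TAU, where 5.95% and 6.81% of all probe sets were called lower. The part of these shifts in the results for the 4 genes was not tested. In sorted cell pools a change in the share of cells that express a gene and a change of its RNA per cell cannot be told apart.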

How the data were processed

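The authors deposited 1 log2 value for each probe set and array. The submitters' processing notes name RMA and the Transcriptome Analysis Console. RMA adjusts for background and quantile-normalizes. Differences between probe sets, dim ones among them, may be altered in size by such processing, in a direction that was not tested here. The deposited values ran from 3.12 to 19.85. Versions, parameters and build are not given in the sources used here. Gene names came from the platform annotation, which gives 1 symbol for 19572 of 22203 probe sets and none for 2631. No 2 arrays were identical.

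All 23 samples entered a model with a mean per group (limma 3.58.1, R 4.3.3, eBayes without trend, 17 residual degrees of freedom). No values were filtered. P-values were two-sided and Benjamini-Hochberg adjusted over all probe sets of a contrast, and called under 0.05. The method was tested on simulated data.

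The 4 genes, the gene lists and the tests were chosen with earlier results of these data known. Besides the 4 genes, the text names members of 4 lists of related genes, the probe sets at the WT threshold, for each gene the 5 probe sets of highest Pearson correlation, and the 2 nearest measured protein-coding genes on each side in RefSeq (GRCm38.p6) order, the last chosen after seeing the data. Samples share replicate numbers across groups. Same-numbered gated APP and gated TAU samples deviated together in all 4 pairs (correlation 0.18 to 0.42), each best with its own number, so the numbers may pair them. No other tested pair of groups did so in every pair. Among the pairs compared without a test, gated TAU and WT 12 months correlated best with their own number in 4 of 4 pairs (0.058 to 0.415). Gated APP and WT 12 months did so in 3 of 4 (0.025 to 0.473 over the 4 pairs). Some listed genes were not analysed here. Alternatives covered variance model, weights, normalization, filter, samples, replicate block, a Y-linked covariate and exact permutation.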

Additional observations from a re-analysis of the deposited data

Results flagged for a closer look

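The change of Lsp1 was larger in APP than in TAU, by 1.97 ± 0.34 (SE) on the log2 scale, and was singled out because the difference between the 2 changes itself passed the test (limma, adjusted p = 0.0064). Gated APP was at 13.42 ± 0.20 and young APP at 10.24 ± 0.24 (SD, n = 4 and 3), while gated TAU was at 12.07 ± 0.33 and young TAU at 10.87 ± 0.08 (n = 4 each). The aged groups differ in age, 12 and 9 months, along with strain, so that these cannot be told apart. No sample of the 4 genes stood apart from its group in the 20 groups of 4 samples examined.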

How the results depend on the processing

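Of 411 values recomputed for the 4 genes and the counts of calls, leaving out no single sample, 396 kept their direction and side of the threshold or moved by less than the spread, or, for counts, by at most 1.5 times. Array weights gave 4079 calls in gated against young APP (2695 as reported), 1 in the young groups (0 as reported), 121 in the APP change minus the TAU change (52 as reported), and 1.29 for Ildr2 in that last contrast, now called. On only the contrasted groups, Fmo1 in gated against young APP (0.69) and Ildr2 in gated APP against gated TAU (1.18) lost their calls among the APP and TAU contrasts, and the calls of gated APP against gated TAU numbered 120 (206 as reported). The filter on dim probe sets, which kept those above background in the group of their highest mean, called Ica1 in gated against young APP (0.91). It removed Fmo1, whose highest mean was in WT 12 months, so it gave no value for Fmo1. Quantile normalization (0.005) and the Y-linked covariate (0.013) turned the sign of Ildr2 in young APP against young TAU, which was near 0. The covariate changed no other call of the 4 genes. Without WT 12 months replicates 2 and 4, chosen after seeing the data except for the WT contrast, Ildr2 differed by 1.79 in WT, by 1.15 in gated APP against WT and by -0.032 in gated TAU against WT. The exact permutation tests, unadjusted, put Lsp1 (-0.62) and Fmo1 (-0.29) in young APP against young TAU under 0.05 (p = 0.0286 each). In the WT contrast, which is judged above by its size alone, the 4 genes also left the threshold under other settings. Median centring lost Ildr2 (adjusted p = 0.0878), Lsp1 (0.151) and Fmo1 (0.119), quantile normalization lost Fmo1 (0.0844), and the fit on WT samples alone lost Ildr2, Lsp1 and Fmo1. Leaving out WT 12 months replicates 2 and 4 lost Ica1, Lsp1 and Fmo1. In the APP and TAU contrasts, trended prior and median centring changed no call of the 4 genes.

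With single samples left out, the calls ranged from 1643 (without young APP replicate 2) to 2735 in gated against young APP and from 0 to 1 in the young groups. Ica1 ranged from 0.62 to 1.17 in gated against young APP, from 0.90 to 1.18 in gated against young TAU and from -0.42 to 0.13 in the APP change minus the TAU change. Ildr2 ranged from -0.145 to 0.083 in young APP against young TAU. Lsp1 and Ildr2 kept their calls in gated against young APP, in gated against young TAU and in gated APP against gated TAU.

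Samples of different groups share replicate numbers. Of 55 same-numbered pairs 28 had deviations correlated above 0.1 (from -0.52 to 0.55), and 25 correlated best with their own number, and among the contrasts tested all same-numbered pairs exceeded 0.1 for gated APP with gated TAU alone. With the replicate number as a block, Lsp1 differed by 3.13 in gated against young APP, by 1.20 in gated against young TAU and by 1.35 in gated APP against gated TAU, and no call of the 4 genes changed. Depth has no meaning for these arrays, and signals near background limit Ica1, Fmo1 and, in young samples, Ildr2.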
